A study of Mus musculus with 3 samples.

Results

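Cubn, Amn, Lrp2, Dab2, Rbp4, Gata4, Gata6, Foxa2 and Hnf4a are 9 genes of endocytosis and its regulation in visceral endoderm, the epithelium that lines the outside of the yolk sac. They were chosen by name, and every non-control probe that the array annotates with 1 of these names was used: 11 probes for 9 genes, out of 19580 genes tested. The RNA came from mouse yolk sac cells that a flow sorter had gated on 2 surface proteins. The labels call these cells VE-Cadherin+/CD45+, that is, positive for VE-cadherin of endothelium and CD45 of blood cells. There was 1 control sample, of embryonic stage E10.5, and there were 2 Tie-2-Etv2 samples, replicates 1 and 2, whose age the labels do not give. In Tie-2-Etv2 embryos, Cre made under the Tie-2 promoter turns on an Etv2 transgene; Etv2 belongs to the ETS family and directs the first endothelial and blood progenitors. All 3 samples were of mixed strain (B6/CBA and others), were not treated after the sort, and were each hybridised with Cy3 label to a 1-colour Agilent array. The labels call the control genotype only Control, so which transgenes it carried is not stated, and they do not say whether embryos were pooled or whether replicates 1 and 2 stem from different litters. Any spread between these samples may therefore be technical, and the p-values measure no more than that spread.

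Visceral endoderm takes up maternal proteins from its apical surface and passes their contents on to the embryo. Cubilin, encoded by Cubn, binds many ligands but has no membrane span of its own, and the transmembrane protein amnionless, encoded by Amn, carries it to the surface. Megalin, encoded by Lrp2, is a large receptor of the LDL receptor family that works beside them, and the adaptor protein Dab2 links such receptors to the clathrin coat. Rbp4 encodes the carrier that moves retinol in plasma and is a cargo of megalin. Gata4, Gata6, Foxa2 and Hnf4a encode transcription factors of endoderm, and HNF4A in particular is needed for the secretory and absorptive program of visceral endoderm. Dab2 is also made by macrophages, and GATA4 and GATA6 also by mesoderm derivatives.

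The genes are read through single 60-base probes, and 2 of these are shown because they read the cubilin and amnionless receptor pair. The Cubn probe starts at base 10182 of its transcript and lies at chr2:13205609-13205668 on the minus strand of mm9. The Amn probe starts at base 1231 and maps across chr12:112514095-112514243 on the plus strand of mm9, a span longer than the probe itself. Each can be read without a stop codon in at least 1 frame. Both are given 5′ to 3′ as in the array files.
Cubn probe: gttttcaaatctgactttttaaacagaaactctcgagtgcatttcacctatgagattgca
Amn probe: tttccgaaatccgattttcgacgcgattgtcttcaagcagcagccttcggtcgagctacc
A second Cubn probe, at chr2:13197978-13198037, starts at base 11252 and gave the brighter signal, so it represents the gene below. Foxa2 also has 2 probes, at chr2:147868614-147868673 and chr2:147868669-147868728, and the brighter one, the latter, represents it.

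Promoters are shown for the receptor pair and for Hnf4a only. These genes were lower together in the Tie-2-Etv2 arrays, but so was Rbp4, so the promoters shown are a choice among the 9 genes. Each line holds the 250 bases before a RefSeq transcript start, written 5′ to 3′ along the gene, from assembly GRCm38.p6. Capitals mark words searched for on both strands. For GATA factors the words searched were AGATAA, the similar word TGATAA, then the word AGATAG and finally the word TGATAG. For FOXA factors they were the word TGTTTAC, the similar word TATTTAC, then the word TGTTTGC and finally the word TATTTGC. For HNF4 they were the word CAAAGTCCA, the similar word CAAAGTTCA and finally the word CAAAGGTCA; no word contains another.
Cubn, chr2:13491877-13492126, minus strand: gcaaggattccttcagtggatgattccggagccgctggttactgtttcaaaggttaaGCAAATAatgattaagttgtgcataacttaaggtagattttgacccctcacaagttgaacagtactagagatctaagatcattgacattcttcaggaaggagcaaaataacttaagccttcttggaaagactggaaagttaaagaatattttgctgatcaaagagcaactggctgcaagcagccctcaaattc
Amn, chr12:111270846-111271095, plus strand: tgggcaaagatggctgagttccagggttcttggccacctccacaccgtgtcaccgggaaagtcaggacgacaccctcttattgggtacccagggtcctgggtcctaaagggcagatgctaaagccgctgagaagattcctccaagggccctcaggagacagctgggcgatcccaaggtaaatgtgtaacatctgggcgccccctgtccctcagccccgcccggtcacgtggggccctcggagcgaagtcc
Hnf4a, upstream start, chr2:163506607-163506856, plus strand: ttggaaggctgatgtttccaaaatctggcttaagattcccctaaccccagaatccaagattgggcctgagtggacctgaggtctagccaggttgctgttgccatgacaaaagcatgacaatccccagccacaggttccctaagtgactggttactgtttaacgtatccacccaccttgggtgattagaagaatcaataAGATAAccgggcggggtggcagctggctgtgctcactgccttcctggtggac
The Cubn window held 1 FOXA word, on the strand opposite to the gene, and the Amn window held none of the words. The upstream Hnf4a start had AGATAA from base -52 to -47. Of the 9 genes, 7 have an entry in the promoter table, and Gata4 and Gata6 do not. A gene was counted if the window of any of its starts held a word. Dab2, Foxa2, Hnf4a and Rbp4 have more than 1 start, whereas all 27025 genes have 32851 windows. The shares over all genes are therefore not a like background for them. A GATA word stood in 3 of the 7 (Dab2, Foxa2 and Hnf4a) against 29.7% of all 27025 genes of the table. A FOXA word stood in 2 (Cubn and Rbp4) against 13.4%, and an HNF4 word in 0 against 1.31%. These are counts of letters in a window and not of bound sites.

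Well above background, by the scanner software's own flag, were 24218 to 27018 of 55681 probes per array. The replicate 1 array was the dimmest: the 75th percentile of probes detected on all 3 arrays was 1199 intensity units there, 2073 on the control and 2092 on replicate 2. Differences below are therefore between log2 signals after that percentile was subtracted, while signals in intensity units are those of the files, before scaling. Both genes of the sort gate were detected on all 3 arrays. The VE-cadherin gene Cdh5 was higher in the Tie-2-Etv2 mean, by 11.6-fold, and the CD45 gene Ptprc differed by -0.46 ± 0.32 (SE) on the log2 scale. Etv2 itself was 14.1-fold higher.

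The 9 genes were lower in the Tie-2-Etv2 arrays with a single exception, Gata4 on replicate 1. At least 2-fold lower on both Tie-2-Etv2 arrays were 8 of the 9, where 6.64% of all genes tested were. Among genes detected on all 3 arrays it was 6 of 7, against 3.44%. None was 2-fold higher on both, against 3.92% of all genes. The median log2 difference of the 9 was -4.57 on replicate 1 and -1.27 on replicate 2, beside 0.08 and 0.05 over all genes. All 9 were well above background on the control array and on replicate 2, and 7 were on replicate 1, the exceptions being Gata6 and Foxa2. Those 2 entered the test through the control array alone, so the filter itself favoured a lower level in the others. On the control array 6.81% of the genes detected there were 2-fold lower on both other arrays.

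**Figure D1:**
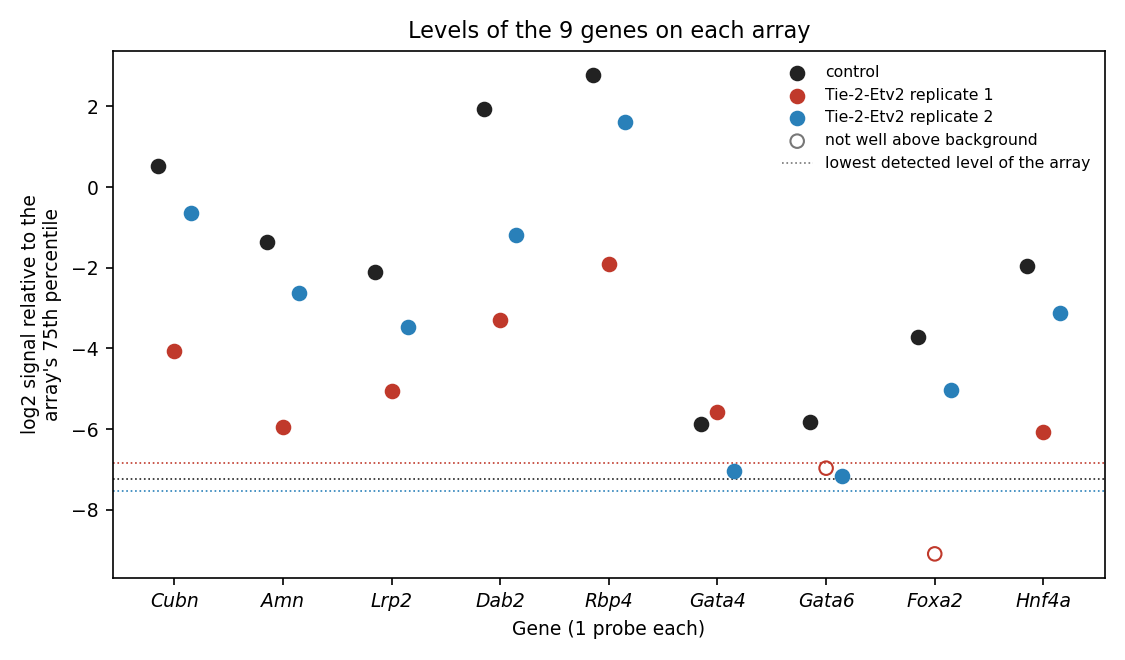
Signal of each of the 9 genes on the control array (black), Tie-2-Etv2 replicate 1 (red) and replicate 2 (blue), as log2 relative to the array's 75th percentile; open circles were not well above background and dotted lines mark each array's lowest detected level. In 7 genes the order is control, replicate 2, replicate 1; Gata4 is highest on replicate 1, and Gata6 is about as low on both Tie-2-Etv2 arrays. Heights of different genes come from different probes and are not comparable.

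The receptor pair was lower on both Tie-2-Etv2 arrays, by nearly the same amounts in the processing reported here but not with normexp background correction. Cubn gave 2969 intensity units on the control array, 72.2 on replicate 1 and 1337 on replicate 2. Amn gave 807, 19.5 and 337 in the same order. In both genes the control was the highest array and replicate 1 far below replicate 2, before and after scaling. After scaling, Cubn was 23.8-fold lower on replicate 1 and 2.24-fold lower on replicate 2, and Amn 23.98-fold and 2.42-fold. The Amn signal on replicate 1 was below that of Gata4 there, so its 23.98-fold rests on a value close to background. The normexp setting also added an offset of 50 units to every signal. With it the log2 differences on replicate 1 were -3.75 for Cubn and -2.77 for Amn, in place of -4.57 and -4.58. Those on replicate 2 were -1.14 and -1.16. The scaled Cubn level was 0.52 on the control and -2.35 ± 2.41 (SD, n = 2) in the Tie-2-Etv2 arrays, and that of Amn was -1.36 and -4.29 ± 2.34 (SD, n = 2). The Cubn probe printed above was dimmer, at 69.9 units on the control and 34.5 on replicate 2, which is 2.04-fold lower after scaling. On replicate 1 it was not well above background, so it was at least 3.83-fold lower there.

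Megalin was lower by less on replicate 1. Lrp2 gave 483 units on the control, 35.9 on replicate 1 and 188 on replicate 2, again with the control highest and replicate 1 lowest. After scaling it was 7.78-fold lower on replicate 1 and 2.60-fold lower on replicate 2. On replicate 2 its difference lay within 0.22 log2 units of those of Cubn and Amn, whereas on replicate 1 it was -2.96 against -4.57 and -4.58. With normexp it was -1.79 on replicate 1 and -1.19 on replicate 2. Its probe lies at chr2:69262566-69262625 on the minus strand.

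Dab2, the clathrin adaptor, had the largest difference of the 9 on replicate 2. It gave 7917 units on the control, 121 on replicate 1 and 913 on replicate 2, so both Tie-2-Etv2 arrays were far below the control. After scaling it was 37.8-fold lower on replicate 1 and 8.75-fold on replicate 2, a mean log2 difference of -4.18 ± 0.98 (SE). On replicate 2 it stood at -3.13, while the other 8 genes lay between -1.38 and -1.15. That narrow range depends on the processing and on the probe. With normexp the 8 genes lay between -1.19 for Lrp2 and -0.39 for Gata6, and Dab2 at -3.03. The dimmer Cubn and Foxa2 probes gave -1.03 and -1.11 on replicate 2. Its single probe lies at chr15:6390616-6390675.

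Rbp4, the retinol carrier, gave 14308 units on the control, 318 on replicate 1 and 6357 on replicate 2. It followed the receptor pair: after scaling it was 26.02-fold lower on replicate 1 and 2.27-fold on replicate 2. Being bright on every array, it was among the least affected by the treatment of background, with a mean difference of -3.02 to -2.82 over the 10 settings tried. Its probe lies at chr19:38191120-38191179.

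Of the transcription factors, Hnf4a and Gata4 were well above background on all 3 arrays, and Hnf4a was the brightest on the control and on replicate 2. Hnf4a gave 539 units on the control, 17.8 on replicate 1 and 239 on replicate 2, with the same order of arrays as the receptors. On replicate 1 its signal was below that of Gata4 and so close to background. After scaling it was 17.5-fold lower on replicate 1 and 2.27-fold on replicate 2, log2 differences of -4.13 and -1.19. With normexp and its offset these were -2.28 and -1.02, so the size on replicate 1 depends on the processing. Foxa2 gave 158 units on the control and 64.4 on replicate 2, 2.48-fold lower after scaling. On replicate 1 its signal was a surrogate of 2.20 units, not well above background, which makes it at least 8.67-fold lower there. The bound for its other probe on replicate 1 is at least 1.77-fold lower, and replicate 2 was 2.16-fold lower.

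Gata4 and Gata6 were close to background everywhere. Gata4 gave 35.4 ± 4.77 units (software error) on the control, 25.2 ± 3.47 on replicate 1 and 16.0 ± 3.12 on replicate 2. Because replicate 1 was the dimmer array, its Gata4 level after scaling was 1.23-fold above the control, and replicate 2 was 2.22-fold below it, so the control lay between the Tie-2-Etv2 arrays. Gata6 gave 36.6 ± 4.90 units on the control and 14.7 ± 3.12 on replicate 2, 2.51-fold lower after scaling. On replicate 1 it gave 9.58 ± 2.84 units, not well above background, and was at least 2.01-fold lower there. With normexp background correction the mean log2 difference was 0.05 for Gata4 and -0.07 for Gata6. The direction of Gata4 thus turned under normexp with its offset of 50 units, and the size for Gata6 fell to near 0. That offset exceeds the Gata4 and Gata6 signals on every array. The parts of the offset and of the background correction were not tested separately.

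No gene of the 9 passed limma's test with Benjamini-Hochberg adjustment over all 26214 probes, and 0% of all 19580 genes did. The adjusted p in limma's test was lowest for Dab2 at 0.311, with Gata6 at 0.349, Lrp2 at 0.474 and the others between 0.630 and 0.939. Before adjustment, 3 of the 9 (Dab2, Gata6 and Lrp2) were under 0.05 in limma's test, where 6.36% of all genes were under it and lower. With 1 control array the spread came from the Tie-2-Etv2 pair alone, with 1 residual degree of freedom, so a larger gap between those arrays gave a larger standard error, from 0.33 for Gata6 to 1.81 for Foxa2, with 0.98 for Dab2, 1.52 for Cubn and 1.57 for Rbp4. With normexp background correction 6 of the 9 passed limma's test (Cubn, Amn, Lrp2, Dab2, Rbp4 and Hnf4a, adjusted p from 2.42e-14 to 0.0416), as did 609 of all 19580 genes. There limma pooled the spread over all probes, so each of the 9 had the same standard error, 0.45, whatever its own gap between replicates. With no filter on dim probes Dab2 passed limma's test (adjusted p = 0.00634), as did 440 of 36088 genes. With 1 control and 2 Tie-2-Etv2 arrays, the smallest p that exact permutation allows is 0.333.

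The gap between the Tie-2-Etv2 replicates needs no control array to be seen. The log2 level on replicate 1 minus that on replicate 2 was -3.41 for Cubn, -3.31 for Amn, -3.52 for Rbp4 and -2.95 for Hnf4a. They were smaller for Dab2 at -2.11 and Lrp2 at -1.58, and Gata4 was at 1.46. At least 2-fold lower on replicate 1 than on replicate 2 were 7 of the 9 genes, Foxa2 by a value not above background, and 5.93% of all genes. Taken alone, replicate 2 had all 9 genes at least 2-fold lower than the control, against 8.35% of all genes, and replicate 1 had 8 of the 9, against 11.3%.

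**Figure D2:**
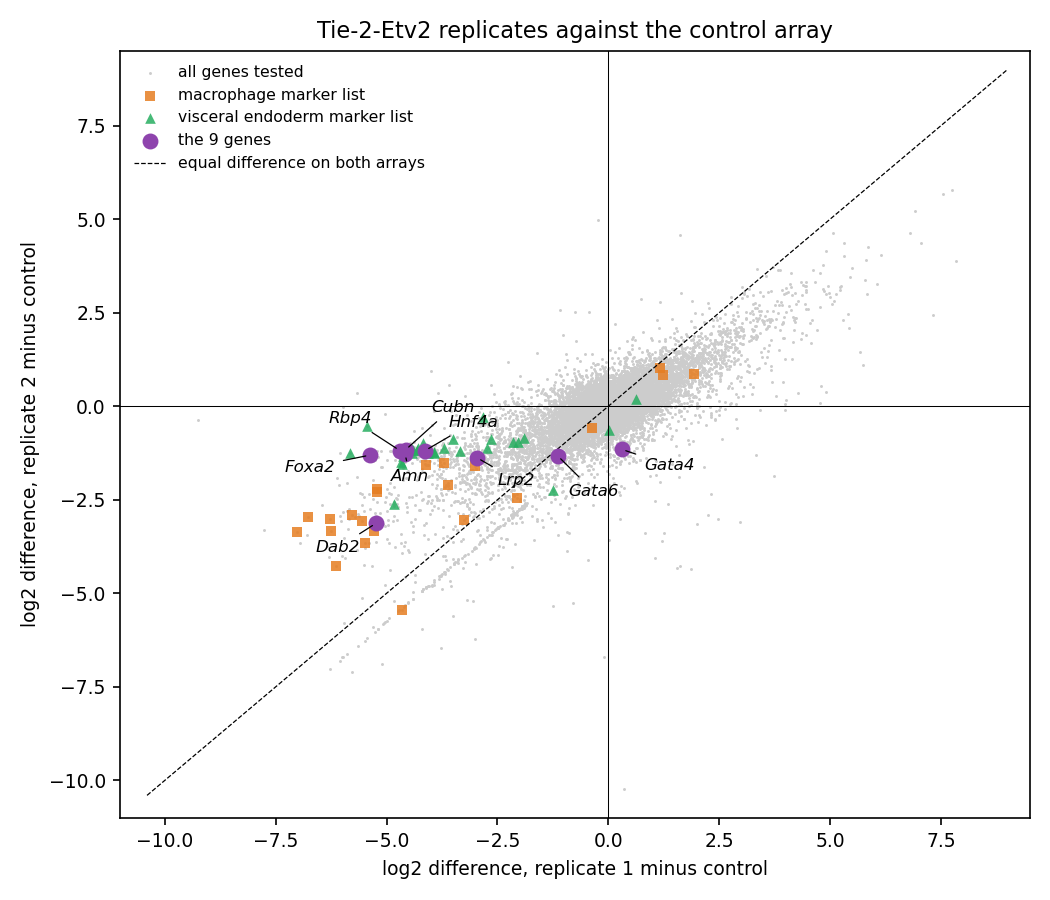
Log2 difference from control, with Tie-2-Etv2 replicate 1 on the horizontal and replicate 2 on the vertical axis, for all genes tested (grey), visceral endoderm markers (green triangles), macrophage markers (orange squares) and the 9 genes (purple, labelled). Both axes share the control array. Cubn, Amn, Rbp4 and Hnf4a lie together near -1.2 on replicate 2, among the visceral endoderm markers, and Dab2 lies lower, at -3.13.

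Across the table, few genes had the same pair of differences as Rbp4, the brightest of the 9 on the control array. Among 17204 other genes detected on all 3 arrays, the 3 nearest by Euclidean distance over the 2 differences were Folr1, a folate receptor gene, at 0.044, Lgals2, a galectin gene, at 0.080, and Ambp, which encodes the plasma protein precursor of alpha-1-microglobulin, at 0.086. Cubn was the fourth nearest at 0.13 and Amn the fifth at 0.15. Hnf4a was in place 24, Lrp2 in place 137 and Dab2 in place 187, and Gata4 in place 8839. Distances use 3 arrays and a shared control, and a second Folr1 probe gave -3.35 and -1.33 in place of -4.67 and -1.21.

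Most other visceral endoderm markers were also low. Of 28 tested markers of this epithelium, 18 were at least 2-fold lower on both arrays and 0 at least 2-fold higher, with medians of -4.002 on replicate 1 and -1.16 on replicate 2. Not all were lower: Slc39a4 was above the control on both arrays, at log2 differences of 0.62 and 0.18. Trf stood at 0.01 on replicate 1 and -0.62 on replicate 2. Afp, the fetal plasma protein, was 16.8-fold and 2.38-fold lower, Apoa1, an apolipoprotein gene, 21.1-fold and 2.25-fold, and Ttr, the plasma partner of Rbp4, 24.9-fold and 2.52-fold. The markers' summed scaled signal was 51.6 times the percentile signal on the control, 10.03 on replicate 1 and 23.7 on replicate 2. None of the 28 was at 0 on the control, and all were well above background there, as were 20 on replicate 1 and 27 on replicate 2. Slc2a2, Apoa4, Fabp1, Cdh1, Fabp2, Cldn6, Krt19 and Epcam were not well above background on replicate 1. In bulk samples such as these, fewer cells of a type and less RNA per cell cannot be told apart. The part of visceral endoderm content in the differences of the 9 genes was not tested. On replicate 2, 10 of the 28 markers lay within the range from -1.38 to -1.15 that the 8 genes other than Dab2 span. So did 338 of all genes, which is 1.73%. Of other lists it held 4 of 13 cubilin and megalin ligands, some of them also markers here, and 3 of 19 other endoderm factors. It held 1 of 10 mesenchyme and mesothelium, 0 of 11 parietal endoderm and 0 of 22 macrophage markers. The range, and leaving out Dab2, were taken from the values and get no test. The range also depends on the processing and the probe, and the dim Gata4 gene sets its upper end.

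Macrophage markers, listed because Dab2 is also made by macrophages, had 18 of 22 members at least 2-fold lower on both arrays and 1 higher. Their medians were -4.93 on replicate 1 and -2.67 on replicate 2, and their summed scaled signal was 88.5 on the control, 16.9 on replicate 1 and 25.3 on replicate 2. All 22 were well above background on the control array, 18 on replicate 1 and 20 on replicate 2. The Dab2 differences of -5.24 and -3.13 lay between the quartiles of this list on both arrays, which were -5.72 and -3.07 on replicate 1 and -3.26 and -1.58 on replicate 2. For the visceral endoderm list the replicate 2 quartiles were -1.24 and -0.93. Mrc1, the mannose receptor of macrophages, stood at -5.28 and -3.32. Other markers of this list were above the control: Lyz1 at 1.93 and 0.87, Lyz2 at 1.15 and 1.01, and Itgam at 1.24 and 0.84. Fcgr3 differed little, at -0.37 and -0.59. The part of macrophage content in the Dab2 difference was not tested.

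Markers of the other tissues that use GATA4 and GATA6 were mixed. Of 11 parietal endoderm markers 2 were 2-fold lower on both arrays and 1 higher, with medians of -0.35 and -0.85. Of 10 mesenchyme and mesothelium markers 6 were lower and 0 higher, with medians of -2.42 and -2.88. The median of this last list was -0.69 for the mean difference with normexp, against -2.67 as reported. Their summed scaled signal was 1.54 on the control, 0.244 on replicate 1 and 0.174 on replicate 2, and that of the parietal endoderm markers was 13.99, 21.8 and 10.4. The parietal endoderm sums are weighted to the brightest genes, Vim on the control and Sparc on both Tie-2-Etv2 arrays, so they say little of the other markers. The part of parietal endoderm, mesenchyme and mesothelium cells in the Gata4 and Gata6 values was not tested.

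**Figure D3:**
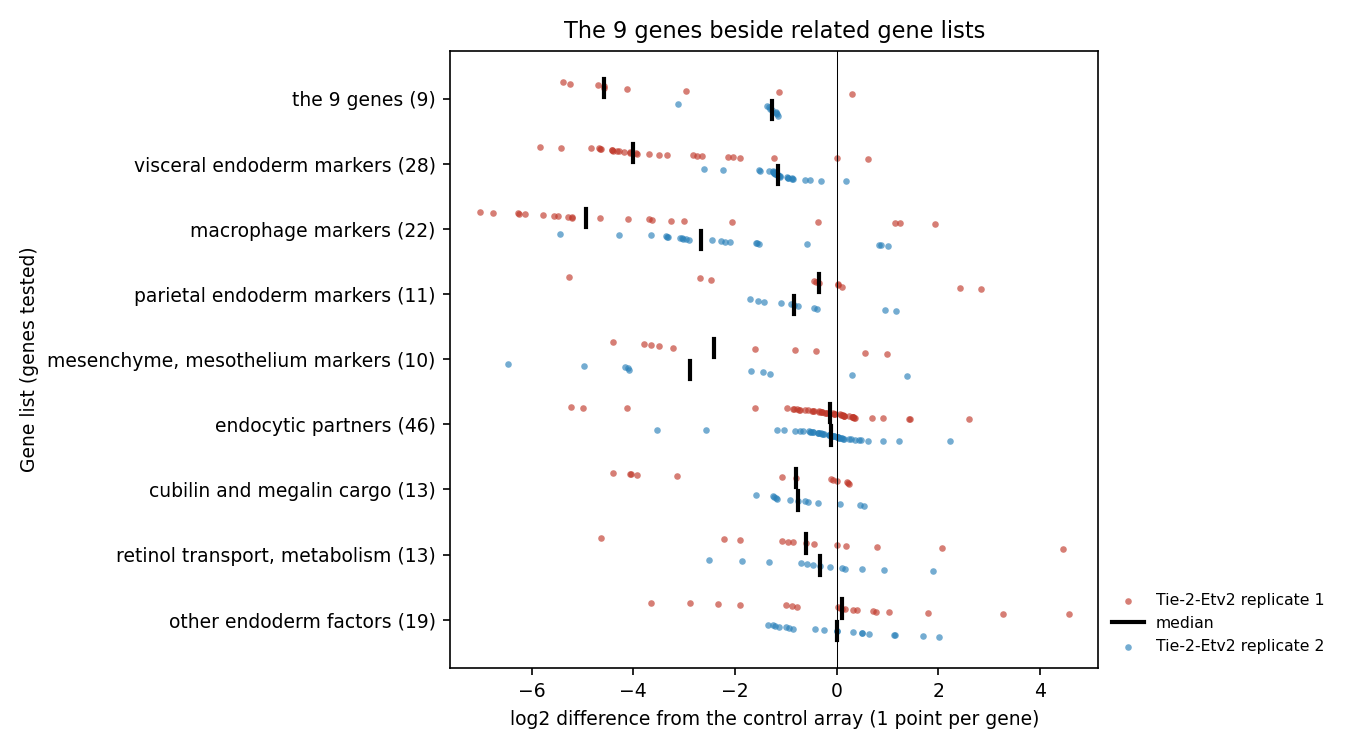
Log2 difference from the control array for each gene of a list, on replicate 1 (red, upper row) and replicate 2 (blue, lower row), with the list median as a black bar. The 9 genes and the visceral endoderm markers have replicate 2 medians of -1.27 and -1.16, whereas the general endocytic partners are centred near 0 on both arrays.

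The general machinery of endocytosis was centred near no difference. Of 46 tested receptors, adaptors, coat and recycling genes, 3 were at least 2-fold lower on both arrays and 2 higher, beside 6.64% and 3.92% of all genes, and the medians were -0.14 and -0.11. The 3 lower genes were Fcgrt, the neonatal Fc receptor gene, at 31.8-fold and 11.6-fold, Lrp1, a relative of megalin, at 37.4-fold and 5.94-fold, and Pdzk1, a scaffold gene, at 17.4-fold and 2.27-fold. A second Lrp1 probe gave log2 differences of -2.94 and -2.97 where the first gave -5.23 and -2.57, and a second Pdzk1 probe gave -3.18 and -1.15 in place of -4.12 and -1.18. Inpp5b, a lipid phosphatase gene, was 2.70-fold and 1.88-fold higher, and Itsn1, an endocytic scaffold gene, 1.71-fold and 1.76-fold lower by its brightest probe. Of the 5 Itsn1 probes, 3 dimmer ones were at least 2-fold lower on both arrays, at log2 differences of -1.22 and -1.25, -1.41 and -1.12, and -1.27 and -1.17, so its place outside the lower genes depends on the probe. Lrpap1, the chaperone of megalin, was 1.96-fold and 1.46-fold lower. Vldlr, another receptor of the LDL receptor family, was 6.05-fold and 4.68-fold higher by measured values, but it was not well above background on the control array. In limma's test with adjustment over all probes 0 of the 46 passed, and 0 of the members of each list below.

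Ligands of cubilin and megalin included secreted plasma proteins and ferritins. Of 13 tested, 5 were 2-fold lower on both arrays and 0 higher, with medians of -0.81 and -0.76. Afp and Apoa1 have been given above, and Apob was 15.2-fold and 2.34-fold lower. A second Apob probe gave log2 differences of -4.06 and -0.74, which is under 2-fold on replicate 2. The ferritin genes Fth1 and Ftl1 were 2.11-fold and 1.75-fold lower on replicate 1 and 1.90-fold and 1.69-fold on replicate 2. Plg, the plasminogen gene, was 2.30-fold lower on replicate 2 and at least 8.79-fold on replicate 1, a bound because the spot was too dim.

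The retinol genes around Rbp4 were mixed. Of 13 tested, 3 were 2-fold lower on both arrays and 1 higher, with medians of -0.60 and -0.34. Besides Ttr the lower genes were Cyp26b1, a retinoic acid degrading enzyme gene, at 3.75-fold and 5.68-fold lower, and Dhrs3, a retinal reductase gene, at 4.66-fold and 3.64-fold. The higher gene was Cyp26a1, at 21.8-fold and 3.71-fold by measured values, but it was not well above background on the control array. In Ttr the replicate 1 fold was the larger by far, whereas in Cyp26b1 the larger was that of replicate 2. The retinoic acid receptor genes went apart, with Rarg 4.21-fold and 1.90-fold higher and Rara 2.09-fold and 1.62-fold lower. Stra6, which encodes a receptor for the Rbp4 protein, and 8 other genes of this list had no tested probe.

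Other endoderm transcription factors had no common direction. Of 19 tested, 2 were 2-fold lower on both arrays and 3 higher, with medians of 0.10 and 0.00. The higher ones were Zfpm2, Sox17 and Nr2f2, but Sox17 and Nr2f2 were not well above background on the control array. The 2 lower ones were not well above background on replicate 1. Rhox5, Nr5a2 and Tcf7l2, named next, are not among them, each being under 2-fold on 1 array. Rhox5, a homeobox gene of extraembryonic tissue, was 3.73-fold and 1.81-fold lower, Nr5a2 1.83-fold and 2.39-fold, and Tcf7l2 1.71-fold and 2.19-fold. The other Tcf7l2 probes gave log2 differences of -0.12 and -0.20, and of -1.15 and -1.87, so the value depends on the probe. Zfpm2, a cofactor of GATA proteins, was 9.59-fold and 4.05-fold higher, and its relative Zfpm1, the cofactor of GATA1 in blood, 1.65-fold and 2.22-fold. A second Zfpm2 probe gave log2 differences of 5.08 and 2.96, in place of 3.26 and 2.02. Among the GATA genes of blood, Gata2 was 5.19-fold and 3.21-fold higher and Gata3 3.54-fold and 1.51-fold higher, while Gata1 was 2.12-fold lower on replicate 1 and 1.77-fold higher on replicate 2.

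**Figure D4:**
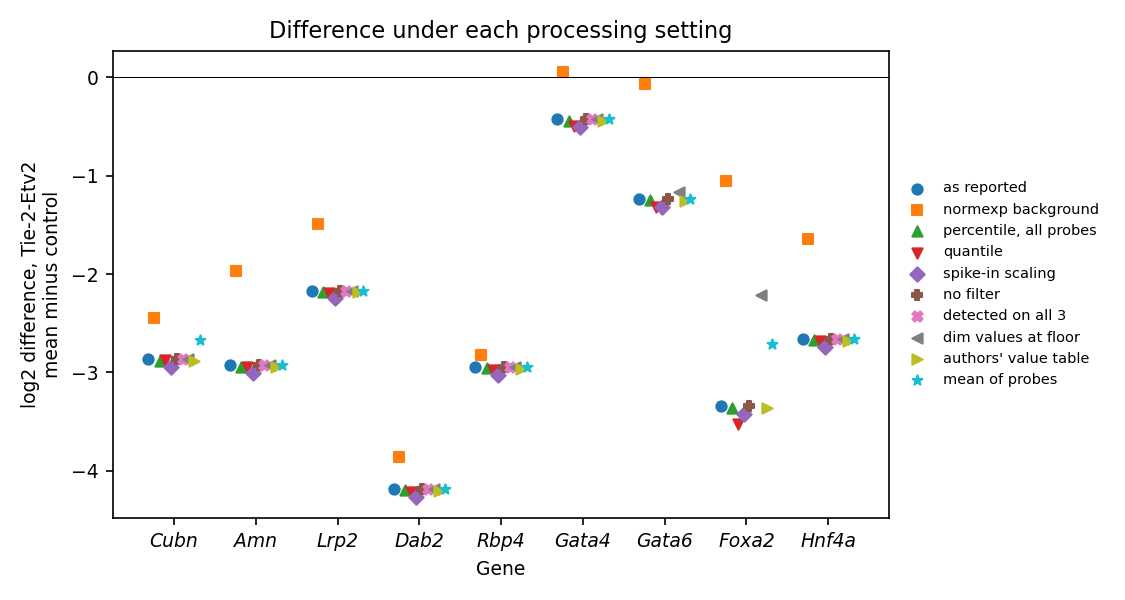
Mean log2 difference of the Tie-2-Etv2 arrays from the control for each of the 9 genes under the reported processing and 9 alternatives, 1 symbol each. Dab2 stays between -4.26 and -3.86 and Rbp4 between -3.02 and -2.82; normexp background correction gives the smallest difference for every gene, and moves Gata4 to 0.05.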

How the data were processed

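Spot intensity values were extracted by the authors with Agilent Feature Extraction (version 10.7 per the submitters' processing notes, 10.7.3.1 per the file headers) on array design 028005. Per the file headers, spatial and multiplicative detrending and surrogates for very dim signals were on and background correction was off. The authors also deposited log2 values of unstated scale and centring. Array-to-array differences in that table equalled the log2 intensity differences plus a constant (0.756 and -0.0161), within 0.01 for 100% of probes, and every row was centred on its median (column medians 0, 0.138 and 0).

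Control spots and, per array, 168 to 174 outlier spots were dropped; 0 others were saturated. Each array's log2 signal was scaled to the 75th percentile of the probes detected everywhere. The 26214 probes detected on the control or on both Tie-2-Etv2 arrays entered limma 3.58.1 (lmFit, eBayes; R 4.3.3), two-sided, with Benjamini-Hochberg adjustment and a threshold of 0.05. A gene is its brightest tested probe. "At least" bounds set the dim array to the higher of its own value and its lowest detected level. Names were updated from RefSeq, GRCm38.p6; 26005 probes kept the file's name. Probe positions are mm9, per the file headers. In 5 simulations with 200 changed probes each, the test called 0 of 332 probes changed by 4 log2 units, so not passing it says little. Fold counts have no test. The genes, gene lists and motif words were chosen with earlier results of these data known. Besides the 9 genes, the text names up to 5 genes of each list with the largest smaller difference, the 3 genes nearest to Rbp4, Etv2 and the gate genes. Lrpap1, Vldlr, Plg, Mrc1, Cyp26a1, Sox17, Nr2f2 and the markers named were picked after their values were seen. Precision is limited by the number of arrays. The alternatives were normexp with an offset of 50 units added to every signal, and other scalings (all probes, quantile, spike-in). Further ones were other filters, a floor for dim values, the authors' table, the mean of probes, and leaving out each Tie-2-Etv2 array. Results for 1 further gene and for 1 further set of motif words are not reported here.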

Additional observations from a re-analysis of the deposited data

How the results depend on the processing

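Of the 9 genes, 8 were at least 2-fold lower on both Tie-2-Etv2 arrays as reported, and 6 were with normexp. Requiring detection on every array also gave 6, since Gata6 and Foxa2 then have no value. Leaving out a Tie-2-Etv2 array, a value with no test, gave 8 to 9. The number of genes passing limma's test was 0 except under normexp (609) and when dim probes were kept (440). Limma's prior degrees of freedom rose from 2.92 to infinity and 20.1 in these fits, and why was not tested. Genes 2-fold lower on both arrays numbered 1300, but 488 under normexp, 593 when detection everywhere was required (17228 genes tested), and 1634 to 2204 when an array was left out. Those 2-fold higher numbered 767, but 312 and 502 under the same settings, 1317 with dim probes kept (36088 genes tested), and 895 to 1774 when an array was left out. Gata4 reversed to 0.054 with normexp; the cause was not tested. It lay at -1.15 to 0.30 when an array was left out. The other 8 genes kept a negative mean difference under each setting that tested them, although Foxa2 ranged from -3.52 to -1.05 and Gata6 from -1.31 to -0.07. With normexp the replicate 1 differences shrank to -3.75 for Cubn, -2.77 for Amn, -1.79 for Lrp2 and -2.28 for Hnf4a, while those of Rbp4 and Dab2 were -4.47 and -4.69. No paired analysis was possible because the single control sample carries no replicate number.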
